A study of Mus musculus with 2 samples.

Results

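The red cell microRNAs (miRNAs) miR-451a, miR-144 and miR-486 were examined in knee joint cartilage of a Col2a1Tsc1KO sample and a control sample. They were chosen by name, as every miRNA on the array whose name began with miR-451a, miR-144- or miR-486, which gave 4 of 1247 mouse miRNAs: miR-451a, miR-144-3p, miR-144-5p and miR-486-3p. The array design assigned miR-486-5p to probes named for miR-3107-5p, so the name rule did not reach it, and those probes are described beside the 4 members. The Col2a1Tsc1KO sample came from male mice aged 8 weeks whose genotype is labelled as a knockout of Tsc1, the brake on the growth kinase complex mTORC1, directed through the cartilage collagen gene Col2a1. The control sample came from male mice of the same age with a genotype labelled wildtype. The labels' protocols describe peeling the articular cartilage off the joint surface and rinsing it ahead of RNA extraction. The sources used here give neither the number of mice behind each sample nor the construct that removed Tsc1. Each group had 1 one-colour array, both on 1 slide, so no difference below has a replicate check and genotype and slide position cannot be told apart.

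Mature red cells have no nucleus but keep a pool of small RNAs made while their precursors ripened in the marrow. The genes of miR-144 and miR-451a share 1 primary transcript, which the erythroid transcription factor GATA1 switches on, and miR-451a is among the most abundant miRNAs of red cells. Its hairpin is too short for Dicer and is cut by the slicer AGO2 instead, so the mature strand runs through the loop, whereas miR-144 is made by Dicer in the usual way. The gene of miR-486 lies inside Ank1, which encodes an ankyrin of the red cell membrane skeleton, and miR-486-5p is abundant in striated muscle as well as in red cells. Articular cartilage has no vessels of its own, while the bone and synovium beside it do. In bulk RNA, fewer cells of a type and less RNA per cell cannot be told apart.

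RefSeq held a mature sequence for 3 of the 4 members, on build GRCm38.p6. They are shown with the seed, bases 2 to 8, in capitals, because the seed largely decides which mRNAs a miRNA pairs with. No 2 of these 3 members share a seed, and that of miR-486-3p was not read.
miR-451a: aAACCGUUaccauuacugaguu
miR-144-3p: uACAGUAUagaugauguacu
miR-144-5p: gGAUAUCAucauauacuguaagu

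The miR-451a and miR-144 genes lie side by side on the plus strand of chromosome 11. The Mir144 hairpin spans chr11:78073005-78073070 and the Mir451a hairpin chr11:78073170-78073241, with 99 bases between them. The nearest protein-coding genes are Flot2, 12570 bases before Mir144, and Eral1, 134 bases after Mir451a. The hairpins are shown with the mature strands in capitals, which makes the different architecture visible: miR-451a fills 1 arm and the loop of its hairpin, and miR-144 has 1 mature strand on each arm.
Mir451a hairpin: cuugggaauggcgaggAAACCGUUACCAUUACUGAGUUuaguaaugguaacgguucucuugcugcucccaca
Mir144 hairpin: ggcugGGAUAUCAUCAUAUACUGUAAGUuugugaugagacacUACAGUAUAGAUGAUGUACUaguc

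Each miRNA was measured with 2 probes of 20 spots each. For miR-451a, miR-144-3p and miR-144-5p, 1 probe was the full complement of the mature strand and the other left out its first base. The pairs for the members measured on at least 1 array are shown because each gives a separate reading of its miRNA.
miR-451a, 21 bases: aactcagtaatggtaacggtt
miR-451a, 22 bases: aactcagtaatggtaacggttt
miR-144-3p, 19 bases: agtacatcatctatactgt
miR-144-3p, 20 bases: agtacatcatctatactgta
miR-144-5p, 22 bases: acttacagtatatgatgatatc
miR-144-5p, 23 bases: acttacagtatatgatgatatcc

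No spot was saturated on either array. The 1000 negative-control spots had a median background-subtracted intensity of 4.93 on the Col2a1Tsc1KO array and 5.02 on the control array (arbitrary units, as for all intensities here). The highest of them, outliers included, read 70.2 on the Col2a1Tsc1KO array and 61.8 on the control array. A probe counted as well above background when over 50% of its usable spots were marked so by the scanner software, and 257 of 1247 miRNAs, or 20.6%, had such a probe on both arrays. Of the 4 red cell members, miR-451a and miR-144-3p met this on both arrays, miR-144-5p met it on the Col2a1Tsc1KO array alone, and miR-486-3p met it on neither. Over the whole array 3.13% of miRNAs were well above background on the Col2a1Tsc1KO array alone and 74.3% on neither. For differences, spot values were averaged on the log2 scale, and each array was set relative to its 75th percentile, taken over probes that passed this rule on both. Errors are standard errors (SE) over spots within the arrays, hold technical noise only, and say nothing of the spread between mice.

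miR-451a, the AGO2-dependent red cell miRNA, was bright on both arrays and brighter on the Col2a1Tsc1KO array. Its probe of 22 bases had spot intensities of 4920 (lowest), 5120 (median) and 5320 (highest) on the Col2a1Tsc1KO array, over 15 usable spots. The same probe had 2430, 2500 and 2590 on the control array, over 18 usable spots. The spots of the 2 arrays did not overlap before scaling, and the probe of 21 bases gave the same order. That probe had 2670, 2965 and 3220 on the Col2a1Tsc1KO array against 1530, 1600 and 1660 on the control array. All 40 spots were marked well above background on each array. Before scaling, the 75th percentile of the Col2a1Tsc1KO array was higher by 0.41 on the log2 scale. How many probes of the whole array lacked overlap was not counted. A lack of overlap, here and below, thus does not set a miRNA apart. The software flagged 9 of the 40 miR-451a spots on the Col2a1Tsc1KO array and 5 of 40 on the control array as outliers. With those spots kept, the difference was 0.55, as without them.

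After scaling, miR-451a had an intensity of 3380 on the Col2a1Tsc1KO array and 2308 on the control array, which is 1.46-fold or 0.55 ± 0.01 on the log2 scale. Its probes differed by 0.62 ± 0.01 (22 bases) and 0.48 ± 0.02 (21 bases). These readings lay more than 2 SE apart, so the SE over spots leaves out the spread between probes. At all 31 array positions where the spot was usable on both arrays, the scaled value was higher on the Col2a1Tsc1KO array. Such positions repeat the reading of 1 pair of arrays, and 40.9% of the 257 miRNAs measured on both were higher by any amount. The size of the miR-451a difference rested on how the arrays were brought to 1 scale. It was 0.96 with no scaling and 0.92 with scaling to the added spike-in RNAs, but -0.016 with quantile normalization, which forces both arrays to the same distribution. No direction can thus be given for miR-451a without naming the scaling.

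**Figure D1:**
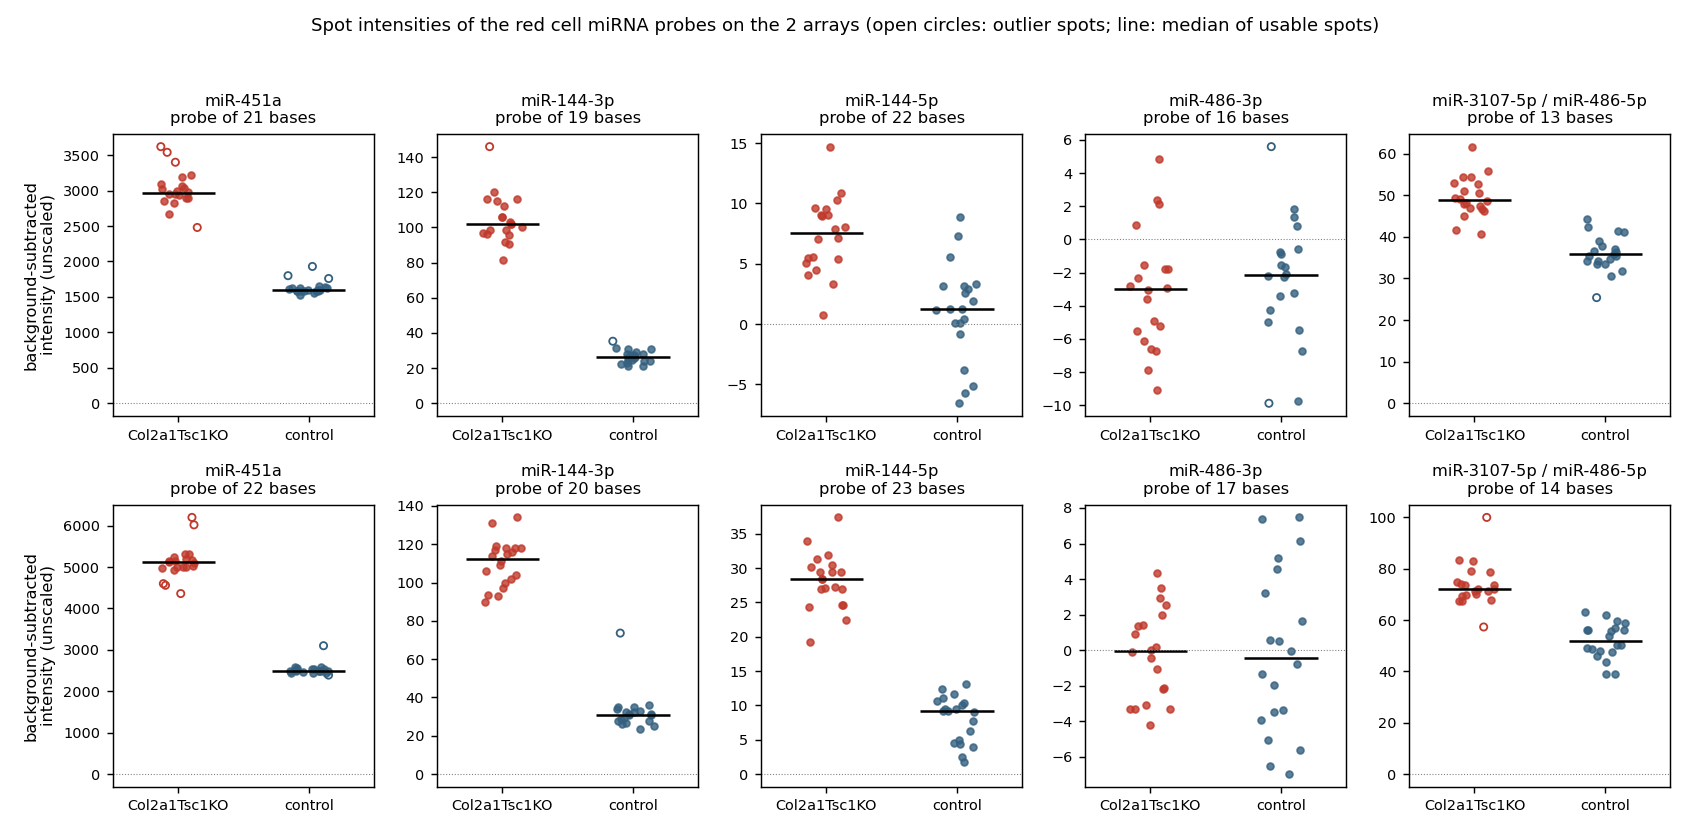
Background-subtracted, unscaled intensity of every spot (vertical axes, arbitrary units, a separate linear range in each panel) for each probe of the red cell miRNAs and of the miR-3107-5p probes that also stand for miR-486-5p, on the Col2a1Tsc1KO array (left) and the control array (right). Lines mark the median of usable spots and open circles outlier spots. For miR-451a, miR-144-3p and the longer probes of miR-144-5p and miR-3107-5p the usable spots of the 2 arrays do not overlap. How many probes of the whole array lack overlap was not counted. The usable spots of miR-486-3p lie around 0 on both arrays.

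miR-144-3p, which in zebrafish represses the erythroid transcription factor klfd, was brighter on the Col2a1Tsc1KO array. Its probe of 20 bases had spot intensities of 89.7 (lowest), 112.5 (median) and 134 (highest) on the Col2a1Tsc1KO array. The same probe had 23.5, 31 and 35.8 on the control array. The probe of 19 bases had 81.7, 102 and 120 on the Col2a1Tsc1KO array, against 21, 26.2 and 31.4 on the control array. Neither probe's usable spots overlapped between the arrays before scaling. On the control array 2 usable spots of the shorter probe were not marked well above background. The usable spots of both probes there lay below the brightest negative-control spot of that array, 61.8.

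After scaling, miR-144-3p had an intensity of 91.7 on the Col2a1Tsc1KO array and 32.2 on the control array, a log2 difference of 1.51 ± 0.04, or 2.85-fold. The control intensity was near that of the dimmest probe counted as well above background on that array, 24.9. The miR-144-3p probes differed by 1.45 ± 0.05 (20 bases) and 1.56 ± 0.05 (19 bases). The readings of the full complement and the shorter probe thus lay within 2 SE of each other. All 37 matched positions were higher on the Col2a1Tsc1KO array. The sign was the same under each of the 18 alternative settings, from 0.48 to 1.95. The lowest value came from normexp background correction with the scaling otherwise kept, and the next, 0.71, from normexp followed by quantile normalization. Normexp here adds an offset of 50 to intensities before the log, which shrinks the differences of dim probes by construction. The members at least 2-fold higher thus numbered 1 of the 2 measured on both arrays, where 15.6% of the 257 miRNAs so measured were at least 2-fold higher. The count was 0 of 2 with normexp alone, where 7.39% of all miRNAs were at least 2-fold higher, and 0 of 2 with normexp followed by quantile normalization, where 5.84% were. No member was at least 2-fold lower, against 17.5% of all measured miRNAs.

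miR-144-5p, the strand on the other arm of the Mir144 hairpin, was dim. Its probe of 23 bases had spot intensities of 19.2 (lowest), 28.4 (median) and 37.4 (highest) on the Col2a1Tsc1KO array, where 19 of 20 spots were marked well above background. On the control array the same probe had 1.79, 9.20 and 13.1, with no spot marked so. Every one of the 20 positions was brighter on the Col2a1Tsc1KO array and the spots did not overlap before scaling. The probe of 22 bases had a median of 7.53 on the Col2a1Tsc1KO array and 1.26 on the control array, and no spot was well above background on either. A lower limit for a fold takes the bright signal over the dimmest probe that still counted as well above background on the control array. After scaling those values were 24.2 for miR-144-5p on the Col2a1Tsc1KO array and 24.9 for that dimmest probe on the control array, so no fold is given. With no scaling the same ratio was 1.30-fold. It still holds the shift of 0.41 on the log2 scale between the arrays that scaling removes, so no lower limit is taken from it.

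The software's own total signal for miR-144-5p was 95.1 on the Col2a1Tsc1KO array and 2.45 on the control array, a comparison that does not hold. The first value equals the total of miR-144-3p on that array, 83.9, plus the 11.1 of the longer miR-144-5p probe: the software had carried the sum of 1 arm over into the next. The totals of miR-451a, 3191 on the Col2a1Tsc1KO array and 1604 on the control array, were the plain sums of its probes, as were those of miR-144-3p, 83.9 and 22.1.

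Although miR-144 and miR-451a come from 1 transcript, the array signals differed by unequal amounts at the scaling used here, in an order that turned under normexp with its added offset. The log2 difference of miR-144-3p exceeded that of miR-451a by 0.96 ± 0.04, or 1.94-fold. A constant scaling of an array drops out of this value, and it was the same with every percentile, median or spike-in scaling and with none. It was 1.74 with quantile normalization, 1.55 in the deposited values and 0.71 with normexp followed by quantile normalization. With normexp alone it was -0.11, where miR-144-3p stood at 0.48 and miR-451a at 0.59. The probes of miR-144-3p were dim and those of miR-451a bright on both arrays. The normexp offset of 50 shrinks the differences of dim probes by construction. Its part in this turn, apart from that of the background correction, was not tested. No order of the pair can be given without naming the background correction and its offset. The part of probe brightness in the gap at the main setting was not tested.

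The miR-486 strands gave a different picture from the chromosome 11 pair. miR-486-3p, the passenger strand, which AGO2 slices in red cell precursors, was at background on both arrays. Its probe of 17 bases had a median intensity of -0.049 on the Col2a1Tsc1KO array and -0.42 on the control array. Its probe of 16 bases had -2.99 on the Col2a1Tsc1KO array and -2.15 on the control array. None of the 40 spots was marked well above background on either array. The miR-3107-3p probes, whose sequences lie within those of the miR-486-3p probes in 3 of 4 pairings, were at background too.

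miR-486-5p, which represses Foxo1, shares its probes with miR-3107-5p, whose gene overlaps that of miR-486. Mir486 lies on chromosome 8 (GRCm38.p6) within the spans of Ank1 and the long noncoding RNA Gm15816. The shared probes are shown because the signal cannot be divided between the miRNAs, and because the short stretch they pair with is all that was read.
miR-3107-5p and miR-486-5p, 14 bases: ctcggggcagctca
miR-3107-5p and miR-486-5p, 13 bases: ctcggggcagctc

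The probe of 14 bases had spot intensities of 67.5 (lowest), 72.2 (median) and 83.4 (highest) on the Col2a1Tsc1KO array. It had 38.9, 52 and 63.1 on the control array, with no overlap before scaling. The probe of 13 bases had 40.7, 48.95 and 61.7 on the Col2a1Tsc1KO array and 30.6, 35.9 and 44.4 on the control array, and these ranges overlapped. After scaling, the shared probes had an intensity of 52.1 on the Col2a1Tsc1KO array and 49.9 on the control array, a log2 difference of 0.06 ± 0.03, or 1.04-fold. Only 23 of 37 matched positions were higher on the Col2a1Tsc1KO array once scaled, whereas all 37 were before scaling. The difference of miR-144-3p exceeded that of the shared probes by 1.45 ± 0.05, and that of miR-451a exceeded it by 0.49 ± 0.04. The miR-451a gap turned to the other side with quantile normalization, where the shared probes stood at 0.28 and miR-451a at -0.016, and in the deposited values (0.26 and 0.095). With normexp followed by quantile normalization the values were 0.089 and 0.008. With normexp alone the gap kept its side, at -0.16 for the shared probes and 0.59 for miR-451a.

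Among the 257 miRNAs measured on both arrays, the median log2 difference was -0.22 and 40.9% were higher on the Col2a1Tsc1KO array by any amount. miR-144-3p ranked 9 from the highest difference, miR-451a ranked 61 and the shared miR-486-5p probes 98. With quantile normalization miR-144-3p ranked 8 and miR-451a 128, with normexp followed by quantile normalization 37 and 116, and with normexp alone 53 and 47. The 3 other miRNAs with a difference closest to that of miR-451a were miR-26b-5p at 0.55, miR-15a-5p at 0.54 and miR-690 at 0.54. Those closest to miR-144-3p were miR-196a-5p, miR-199a-5p and miR-125a-5p, at 1.499, 1.495 and 1.49. Closeness here means the difference between 2 arrays alone.

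**Figure D2:**
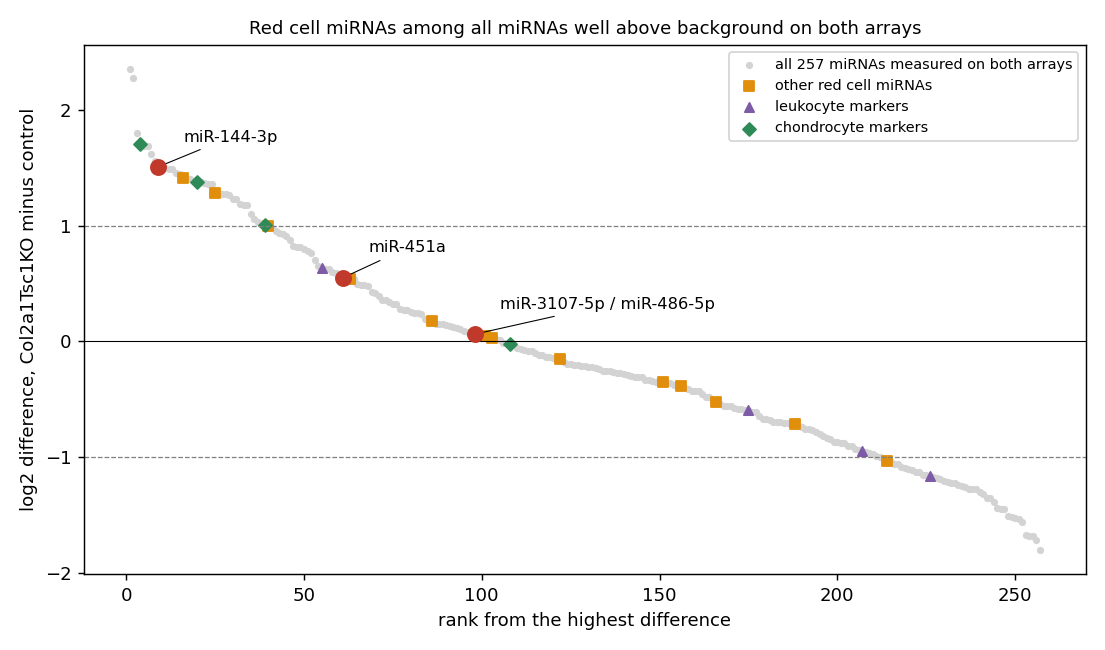
Log2 difference, Col2a1Tsc1KO minus control (vertical axis), of the 257 miRNAs well above background on both arrays, ordered from the highest (horizontal axis, rank). Large red points mark miR-144-3p at rank 9, miR-451a at rank 61 and the miR-3107-5p / miR-486-5p probes at rank 98. Squares, triangles and diamonds mark other red cell miRNAs, leukocyte markers and chondrocyte markers, and dashed lines mark 2-fold.

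Only 1 miRNA on the array shared bases 2 to 7 with a member by RefSeq sequence, and none shared bases 2 to 8. It was miR-101a-3p, a repressor of the chromatin enzyme Ezh2, whose first 7 bases equal those of miR-144-3p. It is printed with bases 2 to 8 in capitals for comparison with miR-144-3p above.
miR-101a-3p: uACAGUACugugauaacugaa

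miR-101a-3p lies on another chromosome, 4, and had a scaled intensity of 172 on the Col2a1Tsc1KO array and 86.1 on the control array, a log2 difference of 1.0004 ± 0.02. Both miRNAs with these 7 first bases were thus higher on the Col2a1Tsc1KO array at this scaling, as were 40.9% of the 257 miRNAs measured. Of the other miR-101 names measured on both arrays, miR-101c differed by 1.27 ± 0.03 and miR-101b-3p by 0.025 ± 0.05.

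A list of 19 other miRNAs that are abundant in red cells or their precursors lay on both sides of 0. Of these, 13 were well above background on both arrays: 7 were higher and 6 lower on the Col2a1Tsc1KO array, and 2-fold was reached upward by 3 and downward by 1. Over all 257 measured miRNAs, 40.9% were higher, 15.6% reached 2-fold upward and 17.5% downward. The list's median log2 difference was 0.025, against -0.22 over all 257 miRNAs, and its sign turned with quantile normalization, with normexp alone or followed by it, with outlier spots kept and in array rows 193 to 384 alone. At its top stood miR-210-3p, the hypoxia-induced miRNA, at 1.42 ± 0.03 and miR-22-3p at 1.29 ± 0.01. At its foot stood miR-92a-3p of the growth-linked miR-17 cluster at -1.03 ± 0.02 and miR-93-5p of the related miR-106b cluster at -0.71 ± 0.02. miR-16-5p, which is plentiful in red cells and in most tissues, had a scaled intensity of 1887 on the Col2a1Tsc1KO array and 1823 on the control array, a difference of 0.05 ± 0.02. Most of the list is also made in other cells.

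All 6 miRNAs listed as declining while red cells mature were measured on both arrays, 3 of them higher and 3 lower, with a median of -0.038. Over all 257 miRNAs, 40.9% were higher and the median was -0.22. The extremes were miR-24-3p at 1.44 ± 0.01 and miR-150-5p at 0.64 ± 0.06 on the high side, and the myeloid miR-223-3p at -1.17 ± 0.01 and miR-221-3p at -0.28 ± 0.02 on the low side. miR-221-3p and its partner miR-222-3p, at -0.23 ± 0.04, repress the Kit receptor of red cell precursors, and both differed about as much as the median of all miRNAs.

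The ratio of miR-451a to miR-23a-3p is used in human plasma as a measure of red cell RNA, because miR-23a-3p changes little when red cells burst. Here miR-23a-3p differed by 1.23 ± 0.01, more than miR-451a. The miR-451a difference minus that of miR-23a-3p was -0.68 ± 0.02, so relative to miR-23a-3p the miR-451a signal was lower on the Col2a1Tsc1KO array, by 1.60-fold. This value is free of constant scaling and lay between -0.86 and -0.63 under all 18 alternatives. For miR-144-3p the same comparison gave 0.28 ± 0.04, the opposite sign. That sign turned with normexp alone, where miR-144-3p stood at 0.48 and miR-23a-3p at 1.22, and with normexp followed by quantile normalization, where they stood at 0.71 and 0.81.

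Markers of other cells were present on both arrays and differed between them. For comparison, 40.9% of all 257 measured miRNAs were higher on the Col2a1Tsc1KO array and the rest lower, with a median log2 difference of -0.22. The 4 leukocyte markers had a summed scaled intensity of 4454 on the Col2a1Tsc1KO array and 9633 on the control array, of which miR-223-3p alone held 3632 and 8163. miR-142-3p and miR-142-5p were lower too, at -0.95 ± 0.03 and -0.59 ± 0.03, while miR-150-5p was higher, at 0.64 ± 0.06. The 4 skeletal muscle markers summed to 737 on the Col2a1Tsc1KO array and 1410 on the control array, with 3 lower. The 2 endothelial markers summed to 1977 on the Col2a1Tsc1KO array and 1555 on the control array, and miR-126-3p differed by 0.35 ± 0.01. The 4 chondrocyte markers summed to 5268 on the Col2a1Tsc1KO array and 2322 on the control array, with 3 higher and 1 lower. miR-140-5p, at 1.38 ± 0.01, and miR-140-3p, at 1.01 ± 0.01, held most of both sums. miR-455-3p differed by 1.71 ± 0.05 and miR-455-5p by -0.026 ± 0.14. The labelled tissue thus carried its defining miRNA, miR-140-5p, on both arrays. No marker of these lists was missing on either array. Under each of the 18 alternatives miR-223-3p, miR-142-3p and miR-142-5p were lower on the Col2a1Tsc1KO array, and miR-150-5p was higher except in the software totals, at -3.72. The part of the cell makeup of the peeled tissue in the red cell values was not tested.

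**Figure D3:**
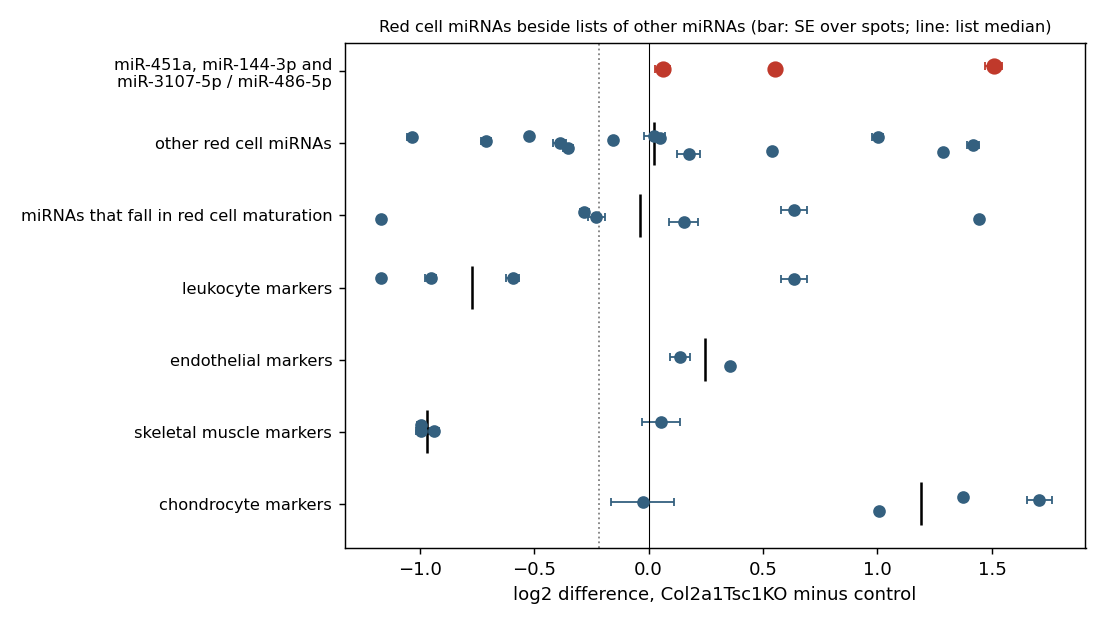
Log2 difference, Col2a1Tsc1KO minus control (horizontal axis), of the red cell miRNAs (top row) and of each list of other miRNAs, 1 point per miRNA well above background on both arrays, with bars for the SE over spots and a black line at each list's median. The dotted line is the median of all 257 miRNAs, -0.22. The leukocyte and skeletal muscle medians lie at -0.77 and -0.97, and the chondrocyte median at 1.19.

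The value table deposited by the submitters, on a log2 scale, gave miR-451a 11.21 on the Col2a1Tsc1KO array and 11.11 on the control array, a difference of 0.095. It gave miR-144-3p 6.25 on the Col2a1Tsc1KO array and 4.61 on the control array, a difference of 1.64. miR-144-5p stood at 3.36 on the Col2a1Tsc1KO array and was listed at the table's floor, -3.26, on the control array, so no fold is given. miR-486-3p was at the floor of both columns, which is also each column's median. The miR-3107-5p row, which also stands for miR-486-5p, had 5.50 on the Col2a1Tsc1KO array and 5.24 on the control array, a difference of 0.26. In these values, which come from the same 2 arrays, the difference of miR-144-3p passed 2-fold and that of miR-451a did not. Of the 304 miRNAs above the floor in both columns, 16.8% were at least 2-fold higher on the Col2a1Tsc1KO array.

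**Figure D4:**
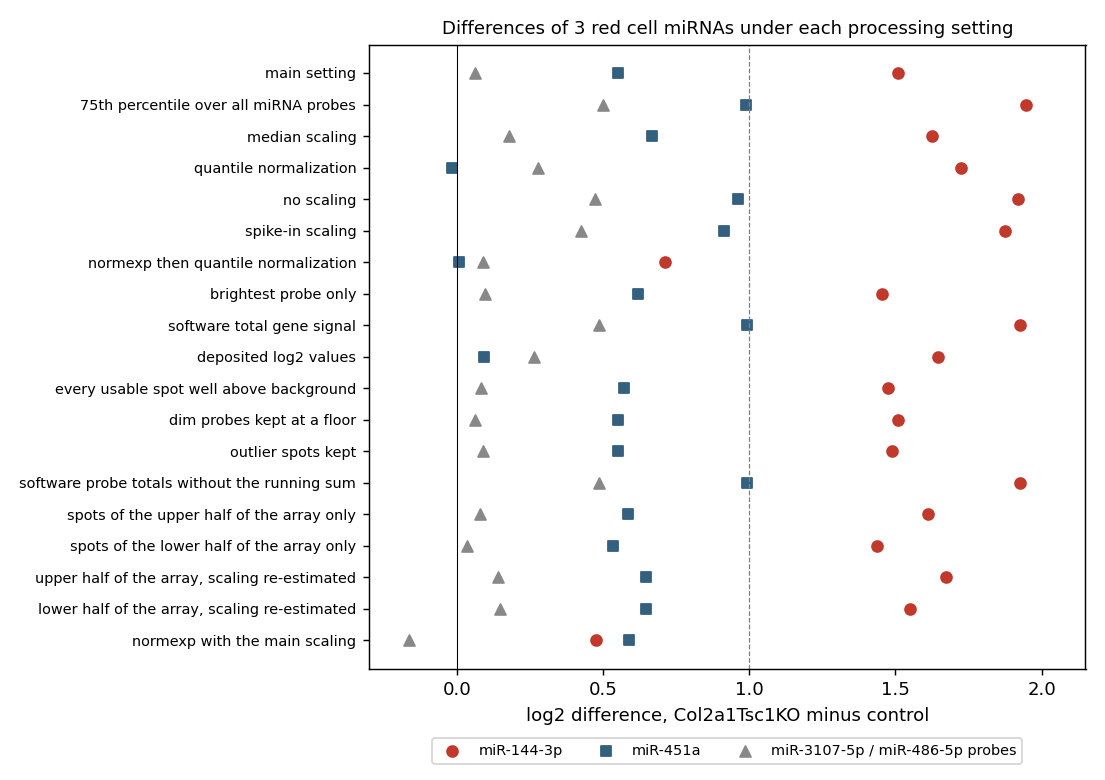
Log2 difference, Col2a1Tsc1KO minus control (horizontal axis), of miR-144-3p, miR-451a and the miR-3107-5p / miR-486-5p probes under the main setting and 18 alternatives (rows). The dashed line marks 2-fold. miR-144-3p stays to the right of the line except with normexp (0.48 alone, 0.71 followed by quantile normalization), and miR-451a lies between -0.016 and 0.99.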

How the data were processed

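The authors' scanner files hold, per the file headers, background-subtracted, raw mean and local background intensity per spot, with no scaling between arrays. The submitters' processing notes name Agilent Feature Extraction 10.7. The deposited table holds log2 values. The sources used here do not state how its values were computed. Its values followed the log2 probe totals of the scanner files across miRNAs (Pearson r 0.992 for Col2a1Tsc1KO over 296 miRNAs, 0.994 for control over 281), so within an array a higher value means more signal. These correlations do not show that differences between the arrays were kept. The miR-451a difference was 0.99 in the software totals and 0.095 in the deposited values, and that of miR-144-3p was 1.93 and 1.64. The column medians are -3.32 and -3.26. How the deposited values were scaled and centred stays unknown.

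Here, outlier spots were dropped, log2 intensities (lower limit 1) were averaged over the spots of a probe, the 75th percentile of 476 probes that were well above background on both arrays served to scale each array, and a miRNA's difference was the mean over such probes. With 1 array per group there is no p-value, the number of arrays limits the precision, and a 2-fold difference served only for counting. Differences were computed in Python 3.11.15 and normexp in limma 3.58.1. The main summary was tested on a copy of the control array with spots shuffled within probes and known shifts put in. The test centred differences on the unshifted miRNAs, so it checked neither the scaling between arrays nor the alternatives. All members are named, with the 2 highest and 2 lowest of each red cell list and the 3 nearest miRNAs in difference. The members and lists were chosen with earlier results of these data known. There were 18 alternatives, 12 planned and 6 added after seeing the data, covering scaling, background correction, probe summary, dim probes, outlier spots and parts of the array. The half-array alternatives were first computed with scaling re-estimated from the rows used. After those values were seen they were recomputed with the scaling of the whole array, and both forms are given. Gene positions and sequences are from RefSeq, and probe sequences from the scanner files.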

Additional observations from a re-analysis of the deposited data

How the results depend on the processing

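No paired analysis was possible because each group had 1 array. Normexp below was followed by quantile normalization, so 2 choices changed together. Normexp alone, added after seeing the data, gave miR-451a 0.59, miR-144-3p 0.48, their gap -0.11, the gap to miR-23a-3p -0.63, the shared miR-486-5p probes -0.16, the median of the other red cell miRNAs -0.14 and 0 members at least 2-fold higher. The alternatives that used software probe totals without the running sum, or spots of array rows 1 to 192 or 193 to 384 only, were chosen after seeing the data. Those by rows were first run with scaling re-estimated from the rows used, then, once those values were seen, rerun with the scaling of the whole array. The re-estimated form gave miR-451a 0.65 in rows 1 to 192 and 0.65 in rows 193 to 384, miR-144-3p 1.67 and 1.55, and the median of the other red cell miRNAs 0.16 and 0.034, which keeps its sign in rows 193 to 384 where the rerun form does not. The values by rows that follow are of the rerun form. The log2 difference of miR-451a was 0.55, and became 0.99 with a 75th percentile that takes in all probes, 0.67 with median scaling, -0.016 with quantile normalization, 0.96 with no scaling, 0.92 with spike-ins, 0.0082 after normexp, 0.62 with the brightest probe, 0.99 with software totals, with or without the running sum, 0.095 in the deposited values, 0.57 with every spot required above background and 0.59 in rows 1 to 192. In the same order of settings, miR-144-3p, at 1.51, became 1.95, 1.62, 1.72, 1.92, 1.87 and 0.71, then 1.93 with software totals of both kinds, 1.64 in the deposited values and 1.61 in rows 1 to 192. Its gap over miR-451a, 0.96, became 1.74 with quantile normalization, 0.71 after normexp, 0.83 with the brightest probe and 1.55 in the deposited values. The gap of miR-451a to miR-23a-3p, -0.68, became -0.86, -0.81 and -0.64 under the first 3 of these. The count of members at least 2-fold higher was 1 under all others except 0 after normexp and quantile normalization. Where it was 1, the share of all miRNAs at least 2-fold higher moved too. That share ran from 12.2% with dim probes kept at a floor to 25.7% with software totals without the running sum. After normexp and quantile normalization it was 5.84%. The median of the other red cell miRNAs, 0.025, became 0.46 with a 75th percentile that takes in all probes, 0.14 with median scaling, -0.011 with quantile normalization, 0.44 with no scaling, 0.39 with spike-ins, -0.018 after normexp, 0.32 with software totals, 0.45 without their running sum, -0.039 with outlier spots kept, 0.096 in rows 1 to 192 and -0.079 in rows 193 to 384. Under the settings other than normexp alone the shared miR-486-5p probes stayed between 0.035 and 0.50. miR-150-5p turned to -3.72 in the software totals and was 1.05 without their running sum. The median of all miRNAs, -0.22, became 0.22 with that percentile and 0.19 with no scaling, which add a constant to every difference. The cause of the other shifts was not tested. No alternative gave a value on both arrays for miR-144-5p or miR-486-3p, whose signal over background limits what can be said.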
